A study of Homo sapiens with 12 samples.

Results

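The apolipoprotein L family was followed through 5 genes, APOL1, APOL2, APOL3, APOL4 and APOL6, across AsPC-1 pancreatic cancer cells at 2 oxygen levels and with or without ARNT. The family was selected on the gene counts of APOL1, which had been seen to rise in hypoxia with a control siRNA and not with an siRNA against ARNT, and the rest were added as its relatives. They are 5 of the 57820 gene IDs counted. Of the 16999 genes with enough reads to be tested, 4 were members; APOL4 was not. APOL1 is therefore described without a test, and the test over all genes is given only for APOL2, APOL3 and APOL6.

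AsPC-1 is an established human line, so every library comes from 1 line of cells. Poly(A)+ RNA was sequenced in 4 groups of 3 replicates (A, B and C). Cells of the normoxia siControl and normoxia siARNT groups stayed at 21% O2, and those of the hypoxia siControl and hypoxia siARNT groups spent 24 h at 1% O2. siControl is a scrambled siRNA and siARNT one against ARNT. All cells, controls included, were transfected with lipid and harvested 48 h later. Wells were seeded in triplicate, and the labels do not say whether the letters stand for separate experiments, so p-values measure the spread between these cultures. ARNT encodes the subunit that both major HIF alpha proteins need in order to bind DNA, and HIF is the transcription factor that carries the response to low oxygen.

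The apolipoprotein L genes form a primate-expanded cluster on the long arm of chromosome 22. APOL1 is the one secreted member: it travels on dense lipoprotein particles in blood, where it kills African trypanosomes by forming pores in their membranes. The others stay inside the cell, where they act at organelle membranes, and several members are known as interferon-induced genes in epithelial and endothelial cells. Because HIF and interferon signalling are different routes of control, the genes of both routes were measured beside the family.

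Library totals ran from 38.53 to 84.34 M gene counts. ARNT itself was lower with siARNT by a log2 fold change of -2.22 (SE 0.07, edgeR adjusted p 8.99e-09) at 21% O2 and -2.17 (SE 0.07, adjusted p 2.65e-09) at 1% O2. The cells carried epithelial markers, with EPCAM at 794 to 1037 and KRT8 at 1182 to 3459 counts per M gene counts (CPM, M for mega, scaled by TMM) over the 12 libraries. KRT7 was low, at 1.1 to 4.01 CPM. The leukocyte gene CD3E was at 0 in all libraries, and PTPRC, COL1A1, COL1A2, CDH5 and KDR each reached at most 0.219 CPM. Higher maxima were seen for CD68 (1.02 CPM), DCN (0.988 CPM), VWF (0.92 CPM) and PDGFRB (0.586 CPM). LYZ (130 to 229 CPM) and LUM (335 to 592 CPM), which are listed as leukocyte and fibroblast markers, were high in every group. Summed levels of the 5 fibroblast markers, nearly all of it LUM, ran from 567 to 593 CPM in hypoxia siControl and from 336 to 469 CPM in the other 3 groups. Their part in the APOL results was not tested.

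APOL2 and APOL1 lie head to head. In GENCODE 29 (GRCh38), APOL1 (ENSG00000100342.16) occupies chr22:36253010-36267530 on the plus strand and APOL2 (ENSG00000128335.9) chr22:36226203-36239954 on the minus strand, with 13.1 kb between their starts. APOL4 (ENSG00000100336.13, chr22:36189124-36204840) and APOL3 (ENSG00000128284.15, chr22:36140330-36166177), both on the minus strand, follow within a span of 127.2 kb. APOL6 (ENSG00000221963.5, chr22:35648395-35668409, plus strand) lies 471.9 kb from APOL3. No other annotated gene overlaps any of the 5. The coding sequences of APOL1 and APOL2 were the most alike of the pairs within the family, with 77.2% of 1236 aligned bases identical. APOL1 and APOL6 were identical at 50.5% of 891 aligned bases.

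Reads of 125 bases had been sequenced. To show how alike APOL1 and APOL2 can be, the closest 90-base windows without gaps in their aligned coding sequences are given. The 90-base windows below differ at 5 bases, written in capitals. The APOL1 window starts at base 307 of its coding sequence and the APOL2 window at base 418. Both cross 1 intron, and they lie within chr22:36261667-36265184 (plus strand) and chr22:36228247-36231395 (minus strand).
APOL1: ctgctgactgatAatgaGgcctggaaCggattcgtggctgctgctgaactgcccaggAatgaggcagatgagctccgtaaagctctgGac
APOL2: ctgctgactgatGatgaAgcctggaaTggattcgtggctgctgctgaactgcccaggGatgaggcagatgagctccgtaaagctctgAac
Within these windows the genes were 94.4% identical. No stretch of 50 identical bases lies inside them, so those counted below lie at least partly elsewhere. Over all annotated transcripts, 0 of the 4175 different 125-base stretches of APOL1 also occurred in APOL2, and the same held for every other pair within the family. Of 50-base stretches, 14 were shared between APOL1 and APOL2, which is 0.37% of those of APOL1 and 0.38% of those of APOL2. APOL1 and APOL3 shared 9 (0.24% and 0.14%), and the other pairs shared 0.

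APOL1 stood apart in hypoxia siControl. With the control siRNA its level was 28.4, 31.3 and 29.6 CPM in normoxia (replicates A, B and C) and 150, 152 and 145 CPM in hypoxia. With siARNT it was 28.1, 34.5 and 27.1 CPM in normoxia and 24.8, 27.3 and 30.0 CPM in hypoxia. The 3 libraries of hypoxia siControl lay far above the other 9, and the remaining 3 groups overlapped each other. In this order the means were 29.8 ± 1.43, 149 ± 3.51, 29.9 ± 4.02 and 27.4 ± 2.59 CPM (SD, n = 3). The log2 fold change for hypoxia was 2.32 (SE 0.097) in siControl, or 5.01-fold, and -0.13 (SE 0.095) in siARNT. With siARNT against siControl it was 0.01 (SE 0.094) in normoxia and -2.45 (SE 0.098) in hypoxia. Since its hypoxia siControl libraries were chosen as high, the share of all genes without overlap there, 46.8% for hypoxia in siControl and 40.3% for siARNT in hypoxia, is given for scale. These are the values that chose the family, so no test is attached to them. In bulk RNA, more cells with APOL1 and more APOL1 RNA per cell cannot be told apart. The deposited counts behind them were not small: the lowest library held 1166 reads of APOL1 and the highest 9970.

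APOL2, an intracellular member that lacks the secretion signal of APOL1, rose with it. With the control siRNA its level was 22.0, 22.5 and 20.9 CPM in normoxia and 67.2, 72.9 and 64.9 CPM in hypoxia. With siARNT it was 22.7, 26.5 and 20.6 CPM in normoxia and 17.6, 20.4 and 21.2 CPM in hypoxia. As for APOL1, only the hypoxia siControl libraries stood clear of the rest. Of all genes, 46.8% showed no overlap for hypoxia in siControl and 40.3% for siARNT in hypoxia. In the order of the levels above, the group means of APOL2 were 21.8 ± 0.781, 68.3 ± 4.11, 23.3 ± 2.97 and 19.7 ± 1.9 CPM (SD, n = 3).

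Hypoxia raised APOL2 3.13-fold in siControl (log2 fold change 1.65, SE 0.099, edgeR adjusted p 8.54e-07). That change ranked 108 from the top among the 16999 tested genes. APOL2 was the 1 member of the 3 tested that was called in this comparison, where 25.3% of all tested genes were called in either direction and 10.4% were higher. In siARNT the change with hypoxia was -0.24 (SE 0.098, edgeR adjusted p 0.187). There edgeR and DESeq2 both called 0 of the 3, and edgeR called 4.09% of all genes (2.21% higher and 1.89% lower). At an unadjusted p under 0.05 there was 1, APOL2 (edgeR p 0.0314). With a correction for GC content, a fall of APOL2 was called here, at -0.18 (adjusted p 0.024).

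The difference between these responses was itself tested. The interaction, which is the hypoxia response of APOL2 under siARNT less its response under siControl, was -1.89 on the log2 scale (SE 0.139, edgeR adjusted p 2.44e-05). Only APOL2 was called among the 3 members tested in this interaction, in which 4.69% of all genes were called (2.49% higher and 2.19% lower). In hypoxia, siARNT lowered APOL2 3.47-fold (log2 fold change -1.79, SE 0.1, adjusted p 2.25e-07). In normoxia the difference was 0.10 (SE 0.098, adjusted p 0.495). These comparisons share libraries: the rise in siControl and the fall with siARNT in hypoxia both use the hypoxia siControl group, and the interaction uses all 12.

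**Figure D1:**
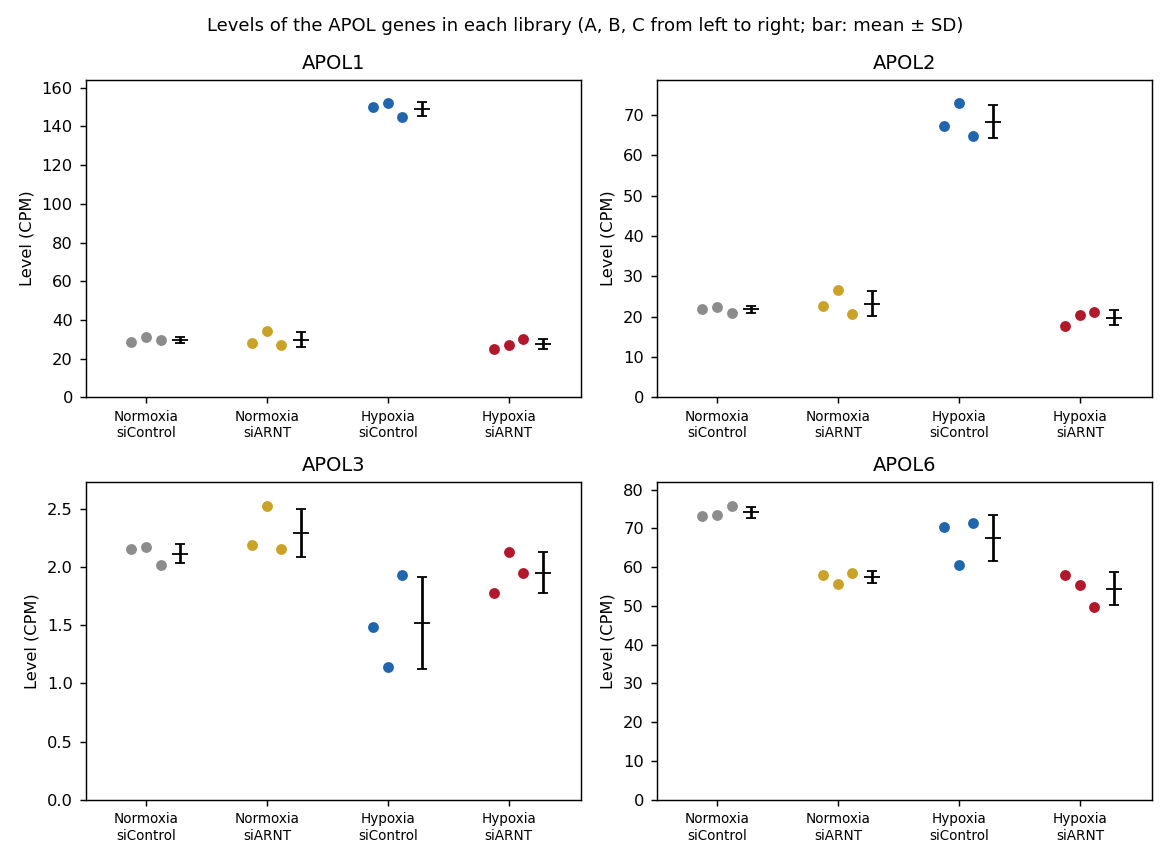
CPM of APOL1, APOL2, APOL3 and APOL6 in each of the 12 libraries, with the mean ± SD (n = 3) of each group beside the points; each panel has its own axis from 0. APOL1 (145 to 152 CPM) and APOL2 (64.9 to 72.9 CPM) are high in hypoxia siControl alone, APOL3 stays between 1.14 and 2.53 CPM, and APOL6 is lower in both siARNT groups.

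APOL1 was the stronger of the pair. The ratio of APOL1 to APOL2 CPM within a library was 1.29, 1.39 and 1.41 in normoxia siControl and 1.24, 1.3 and 1.31 in normoxia siARNT. It was 2.24, 2.08 and 2.23 in hypoxia siControl and returned to 1.41, 1.34 and 1.41 in hypoxia siARNT. No library of the other groups reached the range of hypoxia siControl. Because the ratio includes APOL1, it is given as a description.

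Reads across single splice junctions gave a view within each gene. The APOL2 junction that joins its 121-base and 54-base exons (intron 36629502 to 36635486 of chromosome 22, in the coordinates of the deposited event files, whose build is not GRCh38) held 47 to 88 reads per library in normoxia siControl and 122 to 176 in hypoxia siControl. Per M gene counts that is 1.05 ± 0.11 and 2.59 ± 0.0951 (SD, n = 3). With siARNT it was 1.22 ± 0.0328 in normoxia and 1.2 ± 0.115 in hypoxia. An APOL1 junction downstream of its 54-base exon (intron 36653454 to 36657641) stood at 1.45 ± 0.118 reads per M in normoxia and 7.32 ± 0.319 in hypoxia with the control siRNA, and at 1.3 ± 0.0647 and 1.47 ± 0.24 with siARNT. A junction near its 5′ end (intron 36649266 to 36650982) stood at 1.18 ± 0.23, 5.75 ± 0.401, 1.47 ± 0.204 and 1.18 ± 0.131 in the same order. At all 3 junctions the hypoxia siControl libraries lay above all others. For the APOL1 junctions this restates the choice of APOL1, whose counts were high in that group. The share of all junctions that separate in this way was not computed. Of all genes, 46.8% showed no overlap for hypoxia in siControl and 40.3% for siARNT in hypoxia. These junction reads come from the same libraries as the gene counts, so they are not a second experiment.

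APOL6 was lower with siARNT at both oxygen levels. This intracellular member, known to promote cell death when overexpressed, stood at 73.1, 73.4 and 75.9 CPM in normoxia and 70.5, 60.7 and 71.4 CPM in hypoxia with the control siRNA. With siARNT it stood at 58.1, 55.7 and 58.5 CPM in normoxia and 58.1, 55.4 and 49.8 CPM in hypoxia. All 6 siARNT libraries were lower than all 6 siControl libraries; in normoxia 46.5% of all genes showed no overlap between these groups and in hypoxia 40.3%. siARNT lowered APOL6 1.29-fold in normoxia (log2 fold change -0.37, SE 0.074, edgeR adjusted p 0.00575) and 1.24-fold in hypoxia (-0.31, SE 0.074, adjusted p 0.00792).

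In normoxia APOL6 was the 1 of the 3 tested members called with siARNT, where 20.2% of all genes were called (9.42% higher and 10.8% lower). In hypoxia 2 of the 3, APOL6 and APOL2, were called lower with siARNT, where 29.1% of all genes were called and 14.7% were lower. The hypoxia log2 fold change of APOL6 was -0.13 with the control siRNA (SE 0.074, adjusted p 0.22) and -0.08 with siARNT (SE 0.074, adjusted p 0.575), and neither value was called. The interaction of 0.06 (SE 0.105, adjusted p 0.779) was not called either. The labels name 1 siRNA treatment against ARNT, so loss of ARNT and other effects of that reagent cannot be told apart.

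APOL3, known to disrupt the membranes of bacteria inside interferon-treated cells, was scarce. With the control siRNA it stood at 2.16, 2.17 and 2.02 CPM in normoxia and 1.49, 1.14 and 1.93 CPM in hypoxia. With siARNT it stood at 2.19, 2.53 and 2.16 CPM in normoxia and 1.78, 2.13 and 1.95 CPM in hypoxia. The hypoxia siControl libraries lay below those of normoxia siControl without overlap, as did 46.8% of all tested genes in one direction or the other. The log2 fold change was -0.48 (SE 0.172, edgeR adjusted p 0.0628), which was not called. Leaving out hypoxia siControl C, the highest of its group, gave -0.67 (adjusted p 0.0136), and that library held 90 reads of the gene. APOL3 was called in 5 of the 22 alternatives in all. In siARNT the change with hypoxia was -0.23 (SE 0.169, adjusted p 0.462), and the interaction was 0.24 (SE 0.241, adjusted p 0.576). For siARNT against siControl it was 0.11 in normoxia (SE 0.166, adjusted p 0.643), and the hypoxia value was 0.36 (SE 0.175, adjusted p 0.152). Without hypoxia siControl C the last of these was called, at 0.55 (adjusted p 0.0326).

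APOL4 was barely detected. It had 2 reads in each of normoxia siControl C, hypoxia siControl A and hypoxia siARNT B, and 0 in the other 9 libraries. No fold is given, since all groups are at or under the floor of 3 counts. APOL5 is the one relative that was not among the 5 members; it had 2 reads in normoxia siControl A and 0 in the other 11 libraries.

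**Figure D2:**
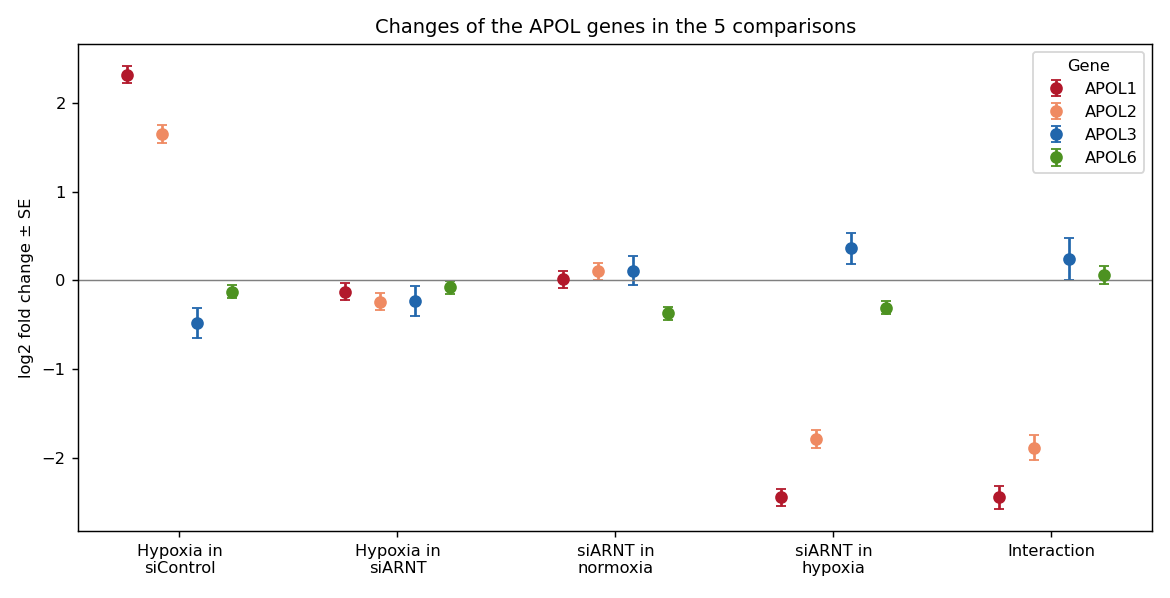
log2 fold change ± SE of APOL1, APOL2, APOL3 and APOL6 in the 4 pairwise comparisons and the interaction (response under siARNT less response under siControl). APOL1 and APOL2 are up with hypoxia in siControl (2.32 and 1.65) and down with siARNT in hypoxia (-2.45 and -1.79), while APOL6 is below 0 in both siARNT comparisons.

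To order the genes by level, CPM were divided by exon length (CPM per kb, over the union of GENCODE 29 exons). In normoxia siControl the order was APOL1 at 8.45 ± 0.407, APOL6 at 7.32 ± 0.148, APOL2 at 6.26 ± 0.226 and APOL3 at 0.359 ± 0.0136 CPM per kb (SD, n = 3), and no neighbours in this order overlapped. In hypoxia siControl APOL1 led with 42.3 ± 1.0, then APOL2 with 19.6 ± 1.18, APOL6 with 6.67 ± 0.585 and APOL3 with 0.258 ± 0.0671 CPM per kb. In hypoxia siARNT APOL1 (7.77 ± 0.74) stayed above the rest, but APOL2 (5.66 ± 0.543) and APOL6 (5.38 ± 0.418) overlapped. In normoxia siARNT APOL1 (8.5 ± 1.14) was followed by APOL2 (6.68 ± 0.851), APOL6 (5.67 ± 0.151) and APOL3 (0.389 ± 0.035), with no overlap between neighbours. APOL2 was thus below APOL6 in normoxia siControl and above it, without overlap, in both hypoxia siControl and normoxia siARNT.

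Across all 12 libraries, the gene whose pattern came closest to APOL1 was its neighbour APOL2. Pearson correlations of log2(CPM + 0.5) were taken with each of 9734 genes of at least 5 CPM on average, and APOL2 gave 0.995. Next came FOSL2 (0.994), LOXL4 (0.993), ZNF395 (0.99) and C4orf3 (0.989). FOSL2 encodes an AP-1 transcription factor and LOXL4 an enzyme that crosslinks collagen. For APOL2 the closest genes were APOL1, LOXL4 (0.991) and RNASET2 (0.985). The libraries form 4 groups, so these values mostly reflect the 4 group means.

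The other members resembled different genes. APOL6 came closest to TRAK2 (0.988), PIGC (0.986) and LACC1 (0.985), and APOL3 to TMEM241 (0.944), XYLB (0.935) and CDCA7L (0.933). The correlation of APOL6 with APOL1 was 0.306, and that of APOL3 with APOL1 was -0.721.

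Genes on either side of the cluster were listed as well. Of 12 such neighbours, all of them tested, 3 were called higher and 1 lower with hypoxia in siControl, where 25.3% of all genes were called. Their median log2 fold change was -0.06, beside 0.02 over all genes. With siARNT in hypoxia 2 were called higher and 0 lower, where 29.1% of all genes were called. In the interaction edgeR called 0 of 12, beside 4.69% of all genes. There, 3 had an unadjusted p under 0.05 and 2 were called by DESeq2. The median in the interaction was -0.26, beside -0.02 over all genes. MYH9, the heavy chain of nonmuscle myosin, ends 13.7 kb from the 3′ end of APOL1. It rose with hypoxia in siControl by 0.80 (SE 0.196, adjusted p 0.0108), a call kept in 21 of 22 alternatives. Its change with siARNT in hypoxia was -0.30 (SE 0.194, adjusted p 0.282), and its interaction was -0.82 (SE 0.275, adjusted p 0.122). RBFOX2, a splicing regulator whose gene separates APOL6 and APOL5 from the rest, rose by 0.30 (SE 0.055, adjusted p 0.00185) in siControl. In siARNT it rose by 0.26 (SE 0.055, adjusted p 0.0276), the latter a call that 11 of 22 alternative analyses kept. FOXRED2, the neighbour called lower, stood at -0.74 with hypoxia in siControl (SE 0.104, adjusted p 0.000346), a call kept in 22 of 22 alternatives. In siARNT it stood at -0.43 (SE 0.103, adjusted p 0.0428), a call that 8 of 22 kept.

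**Figure D3:**
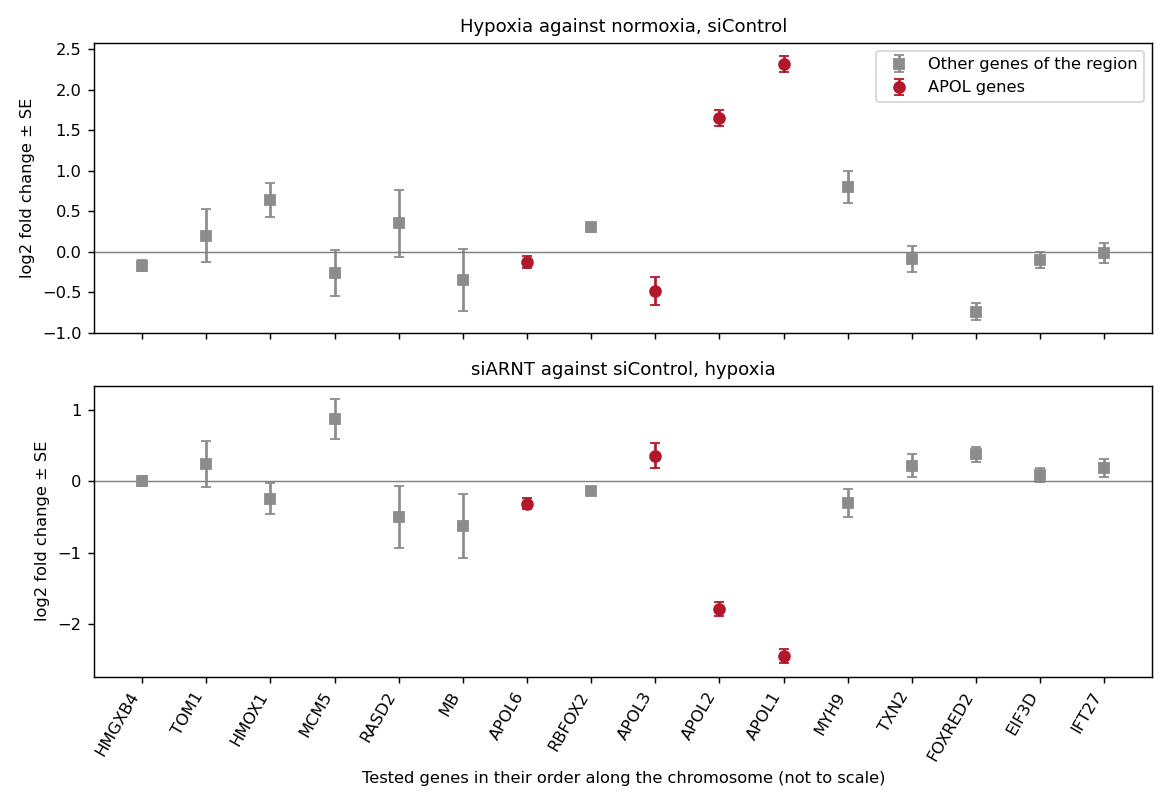
log2 fold change ± SE of the 16 tested genes of the region in their order along chromosome 22, for hypoxia in siControl (top) and for siARNT in hypoxia (bottom); spacing is not to scale. APOL2 and APOL1 stand next to each other at 1.65 and 2.32 above and at -1.79 and -2.45 below, and the other genes lie between -0.74 and 0.80 above and between -0.62 and 0.87 below.

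Known HIF targets were measured as the reference for the oxygen response. With hypoxia in siControl 18 of 18 listed targets were called higher, beside 10.4% of all genes. Their median log2 fold change was 1.65, and the value of APOL2 was also 1.65. With siARNT in hypoxia 16 of 18 were called lower (median -1.39), beside 14.7% of all genes. In the interaction 16 of 18 were called lower (median -1.32), beside 2.19% of all genes. With hypoxia in siARNT the list kept 7 higher calls, beside 2.21% of all genes. Among them was ANKRD37 at 2.50 (SE 0.176, adjusted p 0.00011), whereas APOL2 stood at -0.24. The HIF targets of the list were chosen as textbook genes, and their response in these libraries was known when the family was chosen.

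Interferon-stimulated genes are the group that APOL genes are usually counted with. With hypoxia in siControl 3 of 38 tested were called higher and 5 lower, with a median of -0.11, and the other 30 were not called, where 25.3% of all genes were called. With a correction for GC content, 4 were higher and 15 lower. OAS1, which makes the messenger that activates RNase L, had the largest called change, at 0.79 (SE 0.064, adjusted p 6.67e-06). Next by size were PARP9 and IFIT3, both lower at -0.43 (SE 0.096 and 0.097, adjusted p 0.00599 and 0.00682). With siARNT in normoxia 14 of 38 were called higher and 2 lower, where 9.42% of all genes were higher and 10.8% lower. The median was 0.39 beside 0.01 over all genes, while APOL2 was at 0.10 and APOL6 was lower at -0.37. With siARNT in hypoxia 11 were higher and 4 lower (median 0.23), beside 14.4% and 14.7% of all genes. OASL, an antiviral relative of OAS1, was 1.31 higher in both (SE 0.12, adjusted p 2.95e-05 and 9.94e-06). In the interaction, where APOL2 was at -1.89, 1 of 38 was called, beside 4.69% of all genes. It was OAS1, at -0.49 (SE 0.09, adjusted p 0.0113).

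Of 25 tested genes of interferon and NF-kB signalling, 6 were called higher, 2 lower and 17 not at all with hypoxia in siControl (median 0.10), again beside 25.3% of all genes. IRF9, an interferon regulatory factor, rose by 0.89 (SE 0.179, adjusted p 0.00335) and fell with siARNT in hypoxia by 0.55 (SE 0.178, adjusted p 0.0362, a call kept in 14 of 21 alternatives). NFKBIA, the inhibitor that NF-kB itself induces, rose by 0.64 (SE 0.147, adjusted p 0.00769) and had an interaction of -0.81 (SE 0.208, adjusted p 0.0495), called in 8 of 21 alternatives. TNFAIP3, another feedback inhibitor of NF-kB, had an interaction of -0.52 (SE 0.068, adjusted p 0.00151). These 2 of 25 signalling genes were called in the interaction, beside 4.69% of all genes.

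**Figure D4:**
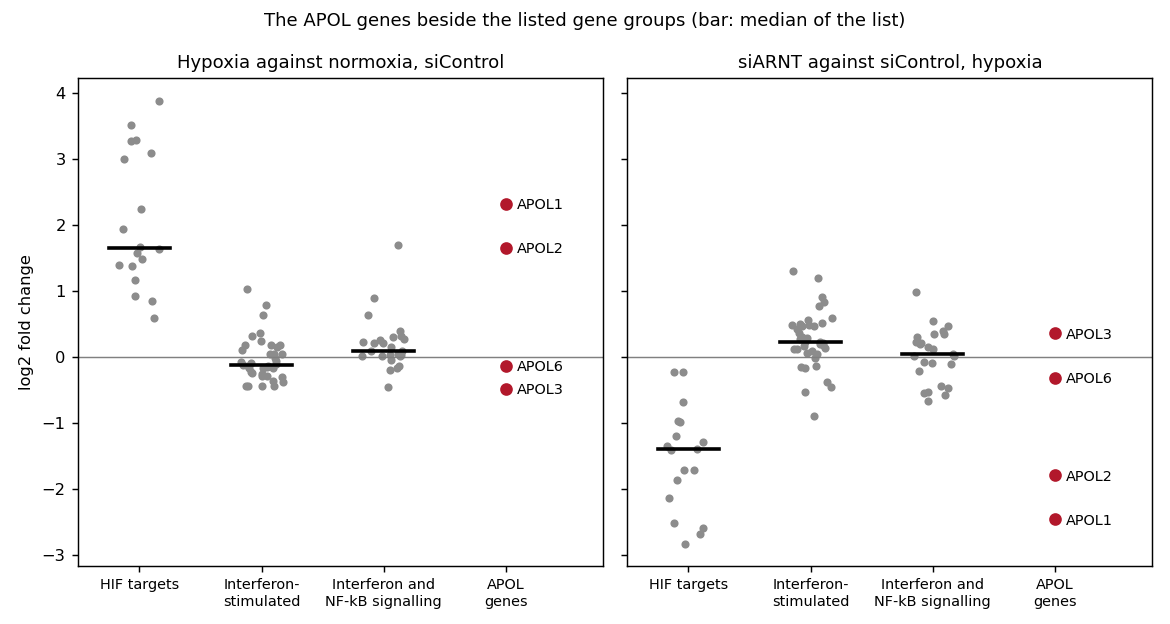
log2 fold changes of the tested HIF targets (18), interferon-stimulated genes (38) and interferon and NF-kB signalling genes (25), 1 grey point a gene with a bar at the median, beside the 4 APOL genes in red, for hypoxia in siControl (left) and siARNT in hypoxia (right). The medians of the HIF targets are 1.65 and -1.39. APOL2 is at 1.65 and -1.79, APOL3 at -0.48 and 0.36, and APOL6 at -0.13 and -0.31; APOL1, at 2.32 and -2.45, was chosen for these values.

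Splicing was the measure that the choice of APOL1 had not used. The deposited event files hold 7 events in the family, 6 in APOL1 and 1 in APOL2, in the 5 kinds of event analysed here. Of these, 6 had at least 20 reads in every library and were tested among 38838 events. An event is described by its percent spliced in (PSI), the share of the junction reads that support inclusion, with the junctions on either side of an exon averaged. Several events of APOL1 share junctions, so they are not separate measurements.

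The event with the smallest unadjusted p was the inclusion of a 54-base coding exon of APOL1. It was picked for that p, the smallest over the 6 tested events and the 5 comparisons. The length of this exon is a multiple of 3, so that it can be left out without a shift of the reading frame. In GENCODE 29 it lies at chr22:36257083-36257136 on the plus strand, and in the event files an exon of the same length has the coordinates 36653129 to 36653182.
APOL1 54-base exon: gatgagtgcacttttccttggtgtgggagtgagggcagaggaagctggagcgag
With the control siRNA its PSI was 95.3, 93.7 and 93.2% in normoxia (mean 94.1% ± 1.07) and 94.9, 95.2 and 95.5% in hypoxia (95.2% ± 0.32). With siARNT it was 95.3, 94.4 and 90.6% in normoxia (93.4% ± 2.54) and 83.9, 88.3 and 93.0% in hypoxia (88.4% ± 4.57; SD, n = 3). The hypoxia siARNT values lay below those of hypoxia siControl without overlap, as did 10.8% of all 38838 tested events in one direction or the other, and 22 reads skipped the exon in the former group and 51 in the latter. The log2 odds of inclusion differed by -1.34 with siARNT in hypoxia (SE 0.39, limma p 0.00623, adjusted p 0.417), which was not called.

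No event of the family was called in any comparison. The share of all events called was 0.0232% for hypoxia in siControl, 0.036% for hypoxia in siARNT, 0.0129% for siARNT in normoxia, 0.0515% for siARNT in hypoxia and 0.0335% for the interaction. At an unadjusted limma p under 0.05 the family had 0, 2, 0, 1 and 1 events in these comparisons. The 2 with hypoxia in siARNT were in APOL1. Inclusion of a 250-base exon differed by -1.71 (SE 0.61, limma p 0.0178, adjusted p 0.736). Joint inclusion of a 102-base and an 89-base exon differed by 1.65 (SE 0.57, limma p 0.0159, adjusted p 0.72). Their rarer forms held 6 and 3 reads in hypoxia siARNT. On simulated data this fit recovered few changes of the sizes tried, so 0 calls says little about whether small changes took place. A fit with precision weights, added for that reason, also called 0 events of the family, while it called 0.0927%, 0.036%, 0.409%, 0.245% and 0.103% of all events in the same order of comparisons. It gave the 54-base exon -1.43 with siARNT in hypoxia (SE 0.35, adjusted p 0.0961).

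With hypoxia in siControl the log2 odds differences of the 6 tested events ran from -0.40 to 0.42, with SE from 0.38 to 0.74. At a 3′ splice site near the 5′ end of the gene, the share of the shorter, 63-base form was 92.1% ± 2.02 in normoxia siControl and 91.4% ± 1.81 in hypoxia siControl, a log2 odds difference of -0.05 (SE 0.38, limma adjusted p 1). For the 54-base exon the difference with hypoxia in siControl was 0.42 (SE 0.39, adjusted p 0.953). In APOL2, the 100-base exon was included in 4.87% ± 2.41 of normoxia siControl and 3.71% ± 1.16 of hypoxia siControl, a difference of -0.40 (SE 0.74, adjusted p 0.993).

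**Figure D5:**
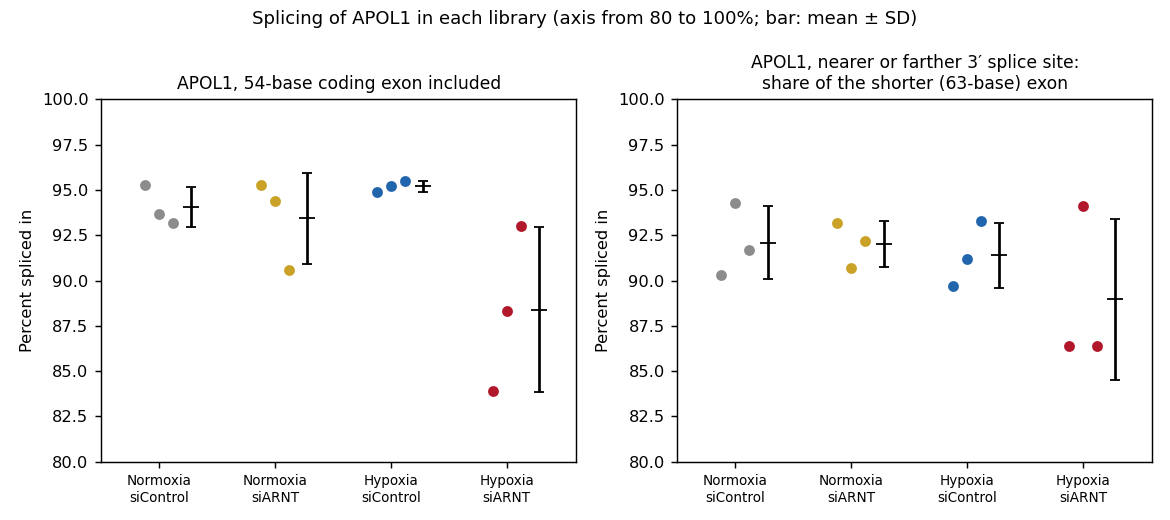
PSI in percent of APOL1 in each library for the 54-base coding exon (left) and for the 63-base form of an early exon (right), with the mean ± SD (n = 3) of each group; the axis runs from 80 to 100%. The 54-base exon is at 94.9 to 95.5% in hypoxia siControl and at 83.9 to 93.0% in hypoxia siARNT.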

How the data were processed

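Per the labels' protocols, stranded poly(A)+ libraries of AsPC-1 cells were read single-end at 125 bases. The submitters' processing notes name Trimmomatic, STAR 2.4.2a and the build GRCh38.p10. The deposited gene files hold whole-number counts of reads per gene in each of 12 libraries; the counter's settings are not given in the sources used here. The deposited event files hold junction counts, the mean read coverage of exons and the PSI, which is a fraction per the headers; all of them were made by the authors from sorted alignments, per the file headers. Recomputing the fraction from the junction counts gave the same value within 0.0051 for 100% of values. Coverage, the intron retention file, and a second count table with the same gene counts were not used. Event coordinates match no APOL exon position in GENCODE 29 (0 of 22, although 21 of 22 lengths match), so they are printed as deposited. No value column lacked a sample.

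Reads assigned to no gene (22.71 to 25.2%) were left out. Symbols were matched for 51996 of 57820 gene IDs, holding 99.35% of counts. The gene test was that of edgeR 4.0.16 under R 4.3.3, with TMM, filterByExpr, robust quasi-likelihood fit of all 12 libraries with 1 mean per group, Benjamini-Hochberg over 16999 genes, called at an adjusted p under 0.05. SE is the log2 fold change over the root of F. Splicing was tested with limma 3.58.1 on log2((inclusion + 0.5)/(exclusion + 0.5)). Both were tested on simulated data. The limit of what the gene test had to recover was set after a first run, to genes of at least 5 CPM, and the splicing test recovered few changes.

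The members and all gene lists were chosen with earlier results of these data known. All members are named; 1 gene that the rule below names is not reported here. From each list at most the 3 called genes with the largest change in a comparison could be named, and the genes closest in pattern to each member (5 for APOL1, 3 for others). MYH9, RBFOX2 and the marker genes are given with further values. Alternatives were other scalings, filters, DESeq2 1.42.0, GC correction, replicate blocks, fits of only the libraries compared and leaving out each library. Replicate letters deviated together for hypoxia in siControl (correlations 0.51, 0.74 and 0.5) and siARNT in normoxia (0.7, 0.88 and 0.39). They did not for hypoxia in siARNT (0.91, -0.13 and -0.85) or siARNT in hypoxia (0.68, -0.1 and -0.72). Whether the letters pair cultures cannot be told from these values, so the main fit left the letters out.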

Additional observations from a re-analysis of the deposited data

Results flagged for a closer look

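The response of APOL2 to hypoxia differed between siARNT and siControl by a test of the difference itself: its response under siARNT less its response under siControl was -1.89 on the log2 scale (SE 0.139, edgeR adjusted p 2.44e-05). In siControl all 3 hypoxia libraries were higher than all 3 normoxia libraries (64.9 to 72.9 against 20.9 to 22.5 CPM). Of all tested genes, 46.8% showed no overlap in that comparison, in one direction or the other. In siARNT the ranges of APOL2 overlapped (17.6 to 21.2 against 20.6 to 26.5 CPM). No value of a group could be examined for a sample that stands apart from its group, since groups of 3 are too small for that check.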

How the results depend on the processing

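The calls of APOL2 (hypoxia in siControl, siARNT in hypoxia and the interaction) and of APOL6 (siARNT at either oxygen level) were kept in each of the 21 or 22 alternatives run. The values of APOL2 ran from 1.61 to 1.69, from -1.85 to -1.71 and from -1.97 to -1.77, and those of APOL6 from -0.39 to -0.22 with siARNT in normoxia; in hypoxia they ran from -0.40 to -0.23. The number of members called with hypoxia in siControl was 1, and 2 with total count scaling, with GC correction and with GC correction plus the replicate block, the added member being APOL3 (-0.50, adjusted p 0.0479, then -0.43, adjusted p 0.0347, and -0.43, adjusted p 0.0387). It ran from 1 to 2 when single libraries were left out, with APOL3 called without normoxia siARNT B (-0.49, adjusted p 0.0471) and without hypoxia siControl C. With hypoxia in siARNT it was 0, and 1 with GC correction with or without the replicate block (APOL2 at -0.18, adjusted p 0.022 and 0.024). APOL2 with siARNT in normoxia, not called, went from 0.10 to -0.02 with GC correction, with GC correction plus the block and without normoxia siARNT B; with single libraries left out it ran from -0.02 to 0.17. The interaction of APOL6, not called, went from 0.06 to -0.07 with GC correction, to -0.07 with the block added and to -0.02 without hypoxia siControl B; with single libraries left out it ran from -0.02 to 0.12. The cause was not tested.

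The replicate block by letter changed no other call: APOL2 stayed at 1.65 (adjusted p 9.15e-07), -1.79 (2.43e-07) and -1.88 (2.9e-05), and with wells as the block at 1.65 (4.61e-05) and -1.88 (0.000715). The number of members called was 1, 0, 1, 2 and 1 in the 5 comparisons with the letter block, as without it. GC correction called more genes everywhere, 7184 in place of 4299 with hypoxia in siControl, 3656 in place of 696 with hypoxia in siARNT, 5504 in place of 3431 with siARNT in normoxia, 7781 in place of 4948 with siARNT in hypoxia and 3076 in place of 797 in the interaction. Total count scaling moved the share of higher calls from 49.6% to 63.8% with siARNT in hypoxia, from 53.9% to 65.8% with hypoxia in siARNT and from 53.2% to 75.3% in the interaction, and moved the median of all genes with siARNT in hypoxia from 0.02 to 0.10. Blocking by well called 136 genes with hypoxia in siARNT and 373 in the interaction. A fit of only the libraries compared called 22 genes with hypoxia in siARNT and 5726 with hypoxia in siControl. For siARNT against siControl that fit called 2620 in normoxia and 4235 in hypoxia.

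Among listed genes, calls of interferon-stimulated genes with siARNT in normoxia ran from 10 to 21 higher, and those of HIF targets with hypoxia in siARNT from 2 to 12. No splicing event of the family was called in any of 17 alternatives. Depth limits APOL4, at 0 to 2 reads, APOL3, at 53 to 187 reads a library, and the skipping forms of APOL1, at 4 to 23 reads a library for the 54-base exon.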

Other observations

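APOLD1, a gene on another chromosome whose product shares a domain with the family and that was named after its values were seen, was lower with siARNT. In normoxia it fell from 3.42 ± 0.172 CPM with siControl to 1.74 ± 0.183 CPM (SD, n = 3; log2 fold change -0.98, SE 0.151, edgeR adjusted p 0.00122). In hypoxia it fell from 2.55 ± 0.458 to 0.841 ± 0.1 CPM (-1.59, SE 0.167, adjusted p 2.81e-05).

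Of 16 other listed apolipoproteins, 6 were tested. CLU (clusterin, a secreted chaperone) rose with siARNT from 36.3 ± 3.68 to 60.7 ± 15.9 CPM in normoxia (log2 fold change 0.74, SE 0.162, edgeR adjusted p 0.00957) and from 30.7 ± 3.49 to 74.3 ± 8.27 CPM in hypoxia (1.28, SE 0.165, adjusted p 0.000157). APOB, the backbone of low density lipoprotein, was scarce, at 0.294 ± 0.103 CPM in normoxia siControl, and rose with siARNT by 1.66 (SE 0.323, adjusted p 0.00476). APOO, a protein of the mitochondrial inner membrane, fell with hypoxia in siControl from 10.6 ± 0.458 to 5.79 ± 0.566 CPM (-0.88, SE 0.096, adjusted p 6.25e-05), and its interaction was 0.92 (SE 0.135, adjusted p 0.00339). Of the 7 listed partners of APOL proteins, 3 were tested. VAMP8, a fusion protein of endosomes, rose by 0.21 with hypoxia in siControl (SE 0.064, adjusted p 0.0317), a call kept in 13 of 22 alternatives. NCS1, a calcium sensor, rose by 0.67 with siARNT in hypoxia (SE 0.155, adjusted p 0.00654). Neither had a called interaction (-0.20, adjusted p 0.222, and 0.36, adjusted p 0.359).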
